A study of Mus musculus with 144 samples.

Results

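Retinal microglia at baseline were described from 54 single cells sorted from the retinas of untreated Iba1-EGFP mice, out of 144 cells in the series. The members were all cells that the labels give as untreated, and no measured value was used to choose them. Iba1-EGFP is a mouse strain in which the Iba1 promoter, active in microglia and also in other macrophages, drives a green fluorescent protein, so the gate for green cells can hold both. The mice were 16 weeks old in every group. The other cells came from the same strain, 54 of them at day 2 and 36 at day 4 after crush of the optic nerve, and they are used here only for values set side by side. Each library holds the cDNA of 1 cell. The libraries were spread over 3 plates with 18 untreated cells each, and on every plate untreated cells sat in rows of their own, so time point and plate position cannot be told apart. The labels name no animal. The 54 cells are therefore treated as 1 sample, spreads are between cells, and no p-value was computed.

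Microglia are the resident macrophages of the retina and the brain. In healthy tissue they carry receptors for chemokine, purines and the growth factor that keeps them alive, they make the first component of complement, and they hold a large lysosomal compartment with which they digest what they take up. Brief stress, including the dissociation and sorting of tissue, is known to switch on immediate-early genes such as Fos and Jun within minutes to hours.

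The median depth of a cell was 4.93 M reads assigned to genes (M is 1e+06; range 0.710 to 13.8 M), and 1 cell was under 1 M. A median of 2793 genes reached 1 FPKM, fragments per kilobase of exon and M reads, and 1335 reached 20 FPKM, the level called on below. By plate the median number of genes at 1 FPKM was 2445, 3172 and 3226 for plates 1, 2 and 3, and the median depth was 4.03, 6.32 and 4.49 M reads. FPKM is a share of the RNA of a cell corrected for gene length, so levels can be compared between genes, but a cell with more of 1 transcript shows less of the others.

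The label was checked against 5 defining genes of microglia, and most but not all cells carried the full set. C1qa, a chain of complement C1q, ran from 114 FPKM through a median of 2843 to 7146 and was on in all 54 cells. Csf1r, the receptor for the survival factor of macrophages, ran from 11.4 through 1030 to 4075 FPKM and was on in 52. Both genes are shared by microglia and other macrophages. Cx3cr1, the fractalkine receptor, ran from 2.13 through 524 to 1602 FPKM and was on in 49 cells, 13 in plate 1 and 18 in each of plates 2 and 3. P2ry12, a purine receptor that steers microglial processes, ran from 1.35 through 677 to 3166 FPKM and was on in 41 cells. Tmem119, a microglial surface protein, ran from 0.742 through 527 to 2708 FPKM and was also on in 41. The last 3 genes thus had cells near zero in the same group as cells far above 20 FPKM, whereas C1qa did not.

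All 5 genes were on in 36 cells, 4 in 8 cells, 3 in 5 cells and 2 in 5 cells, and no cell had fewer. Of the 5 cells with 2 genes, 4 were in plate 1. On the log2(FPKM + 1) scale the mean was 11.30 ± 1.08 (SD over 54 cells) for C1qa, 9.69 ± 1.6 for Csf1r, 8.24 ± 2.24 for Cx3cr1, 7.89 ± 3.22 for P2ry12 and 7.55 ± 3.24 for Tmem119. Over a longer list of 17 microglia markers, a cell had a median of 13 on, with 6 in the lowest and 16 in the highest cell. P2ry12 and Tmem119 were on together in 38 cells, 92.7% of the cells of each, and their correlation over cells was 0.75 (Pearson, n = 54). P2ry12 and Cx3cr1 had a correlation of 0.28. These correlations describe cells that share a sort, a library method and a range of depths.

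Markers of other cell types were counted as present where at least 3 of a list were on. Rod photoreceptor markers met this in 3 of 54 cells (5.56%, exact 95% interval 1.2% to 15.4%, counting error only), cone markers in 1 and retinal ganglion cell markers in 1. Markers of border macrophages, which live along vessels and membranes, met it in 5 cells (9.26%, interval 3.08% to 20.3%). Müller glia markers met it in 10 cells, but without Apoe, Glul and Vim, which macrophages also express, the other 6 markers of that list met it in 0 cells. Only 1 of the 10 had Apoe, Glul and Vim all on, so each of the others held at least 1 of those 6, of which Slc1a3 was on in 8 of the 54 cells and Rlbp1 in 4. Of 54 cells, 0 (exact upper limit 6.603%) met it for each of bipolar, amacrine and horizontal, astrocyte, endothelial, pericyte, pigment epithelium, monocyte, neutrophil, T and NK or B cell markers. Of 54 cells, 18 met it for any other type, and 10 did so once the Müller list was reduced.

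The most abundant protein-coding genes at baseline included many of lysosomal digestion, complement and iron storage. Cst3, cystatin C, an inhibitor of cysteine proteases, ran from 4201 FPKM in the lowest cell through a median of 34380 to 124076 in the highest. It took a median of 4.35% of all assigned reads of a cell. Ctss, the lysosomal protease cathepsin S, ran from 1691 through 13478 to 29263 FPKM. C1qb, a chain of C1q, ran from 1621 through 9507 to 29143 FPKM. Tmsb4x, the actin-binding peptide thymosin beta 4, ran from 2162 through 7550 to 36192 FPKM. No untreated cell was near zero for these 4 genes, and each was above 1000 FPKM in all 54. The 25 genes with the highest mean together took a median of 20.6% of reads, between 9.89% and 34.7%.

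**Figure D1:**
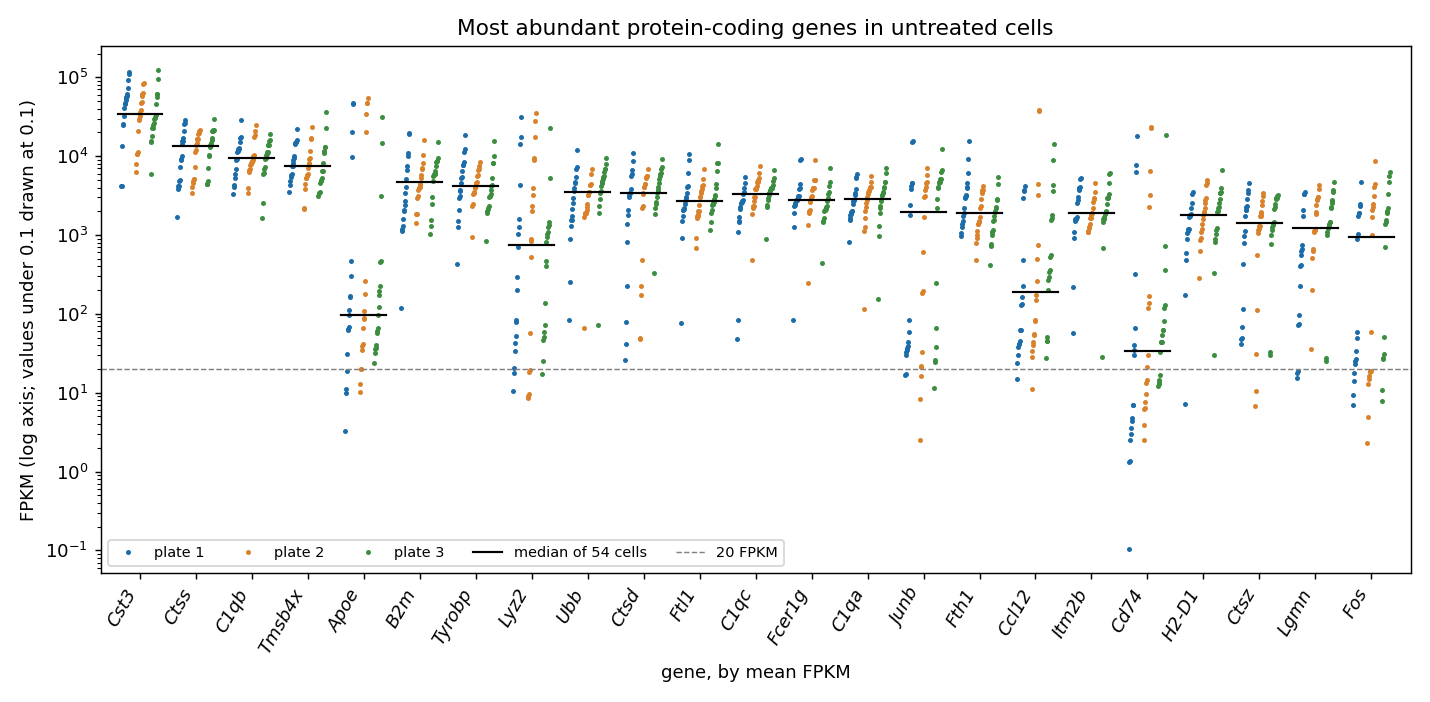
FPKM of 23 of the 25 protein-coding genes with the highest mean in each of the 54 untreated cells (log axis), coloured by plate, with the median as a black line. Cst3, Ctss, C1qb and Tmsb4x stay above 1000 FPKM in every cell, whereas Apoe, Fos and Junb split into high and low cells, and the median of Apoe lies at 95.7 FPKM.

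Other genes of the same functions followed. The lysosomal proteases Ctsd, Ctsz and Lgmn had median levels of 3414, 1426 and 1235 FPKM. C1qc and C1qa had medians of 3273 and 2843 FPKM, and the signalling adaptors Tyrobp and Fcer1g, which serve Trem2 and Fc receptors, 4146 and 2764. The ferritin chains Ftl1 and Fth1 stood at 2673 and 1909 FPKM, and the class I antigen presentation genes B2m and H2-D1 at 4630.0 and 1801. Lgmn was lowest in plate 1, with medians of 486, 1505 and 1465 FPKM in plates 1, 2 and 3. Exons of Ctsd overlap those of Gm49369 and exons of Ctsz those of Nelfcd. Whether strand was used in counting is not given in the sources used here, so part of these levels may belong to the neighbour. The same limit holds for other genes named above or below, among them Csf1r, Cd81, Ctsb and P2ry12, whose exons overlap those of Hmgxb3, R74862, Fdft1 and Med12l. Reads of Ftl1, Ubb and H2-D1 came as fractions of a read in 98.1%, 100% and 98.1% of cells with a value. Other genes named above or below also had many fractions, with 96.3% for Rpl37a, 94.4% for Rps29 and for Eno1, and 92.6% for Actb. Ctsd had 77.8% and C1qb 72.2%, whereas B2m had 11.1% and Tmsb4x 7.41%. How such reads were shared among genes is not known, so the levels of genes with many fractions are uncertain.

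A high mean did not always mean a gene of every cell. Apoe, the lipid carrier apolipoprotein E, had a mean of 7067 FPKM, a rank of 5 among all protein-coding genes, but its median was only 95.7. It lay between 3149.9 and 55086 FPKM in 12 cells and at 467 FPKM or less in the other 42, with no cell between. These 12 cells were spread over the plates as 4, 5 and 3. Lyz2, the lysozyme of macrophages, had a mean of 4125 and a median of 751 FPKM. Cd74, the invariant chain of class II antigen presentation, had a mean of 2063 and a median of 33.8 FPKM and passed 1000 FPKM in 9 cells. Ccl12, a chemokine that draws monocytes, had a mean of 2596 and a median of 188 FPKM and passed 1000 FPKM in 15 cells. Ranked by median, Apoe, Ccl12, Cd74, Fos and Lyz2 left the top 25, and the other 20 genes stayed.

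The cells with abundant Apoe held other genes at high level too; the level of 1000 FPKM used for this was set after the values were seen. Lyz2 was at 1000 FPKM or more in 23 cells, among them all 12 with Apoe at that level. All 9 cells with Cd74 at 1000 FPKM were among the 12, as were all 8 cells with H2-Aa on, a class II chain. Among border macrophage markers, Mrc1, the mannose receptor, was on in 6 cells and F13a1 and Ms4a7 in 7 each, and all of them were among the 12. The other markers of that list were rarer, with Lyve1 on in 2 cells, Folr2 and Cd163 in 1 each and Cbr2 in 0. Pf4, a chemokine of platelets and macrophages, was on in 10 cells, of which 8 were among the 12. All 5 cells that held 3 border macrophage markers were too. Of the microglial markers, Csf1r was on in 12 of these 12 cells, Cx3cr1 in 10, Siglech in 8, P2ry12 in 7, Tmem119 in 5 and Sall1 in 0, against 52, 49, 40, 41, 41 and 15 of all 54 cells. Whether these are microglia in another state or macrophages of another kind was not tested. Over the 54 cells Apoe and Cd74 had a correlation of 0.84 and Apoe and Lyz2 of 0.77.

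The sequences before the start sites of 4 of the most abundant genes are given to show what lies at loci read at high level in each cell. They were picked because the genes are abundant and the windows hold the letters searched for, and they are no sample of all genes. They are the 250 bases before the annotated start from RefSeq (GRCm38.p6), written along the gene's own strand, with GAGGAA, a core of the box bound by the myeloid factor PU.1, or its reverse complement in capitals. Cst3 lies at chr2:148875513-148875762 on the reverse strand, Ctss at chr3:95526536-95526785 on the forward strand, C1qb at chr4:136886201-136886450 on the reverse strand and C1qc at chr4:136892915-136893164 on the reverse strand. In the deposited exon positions Cst3 starts at 148875692 and C1qc at 136893065. Part of these 2 windows thus lies within the gene as it was counted, and distances below are from the RefSeq start.
Cst3: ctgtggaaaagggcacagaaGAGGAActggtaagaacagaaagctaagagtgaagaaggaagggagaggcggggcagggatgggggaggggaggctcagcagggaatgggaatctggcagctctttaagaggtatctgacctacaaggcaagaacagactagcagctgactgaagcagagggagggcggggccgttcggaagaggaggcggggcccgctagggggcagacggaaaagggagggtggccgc
Ctss: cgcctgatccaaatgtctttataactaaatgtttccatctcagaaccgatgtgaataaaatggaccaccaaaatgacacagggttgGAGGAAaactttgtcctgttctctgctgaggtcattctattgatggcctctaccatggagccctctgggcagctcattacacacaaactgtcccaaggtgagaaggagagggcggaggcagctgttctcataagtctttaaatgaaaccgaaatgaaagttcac
C1qb: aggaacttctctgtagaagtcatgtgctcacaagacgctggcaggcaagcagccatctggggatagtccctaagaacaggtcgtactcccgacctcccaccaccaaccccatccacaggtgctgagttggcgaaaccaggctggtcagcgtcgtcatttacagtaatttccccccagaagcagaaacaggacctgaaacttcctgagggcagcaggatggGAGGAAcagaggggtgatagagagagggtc
C1qc: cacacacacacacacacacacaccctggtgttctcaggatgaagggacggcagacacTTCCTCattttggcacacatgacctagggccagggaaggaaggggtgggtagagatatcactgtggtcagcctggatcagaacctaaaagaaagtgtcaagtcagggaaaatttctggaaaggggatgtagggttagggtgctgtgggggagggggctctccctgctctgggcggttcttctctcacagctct
Each of these 4 windows holds 1 match, from base 230 to 225 before the start in Cst3, 164 to 159 in Ctss, 30 to 25 in C1qb and 193 to 188 in C1qc, where it is on the other strand. The same letters, on either strand, are in 23.1% of the 27025 windows of the table. Of the genes on in nearly every cell, 20 of 31 matched a window and 5 of those 20 held it (25%), so its share there is near that of all windows. Spi1, which encodes PU.1, was itself on in 38 of 54 cells, 12, 13 and 13 by plate, with a median of 261 FPKM where it was on and 2.03 where it was off.

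Few genes were on in nearly every cell. Of 21819 protein-coding genes, 31 (0.142%) reached 20 FPKM in at least 52 of 54 cells, and 17 of them did so in all 54. Those 31 genes took a median of 19.3% of reads. The rule chose these genes by their level in these cells, so the counts are a description. In addition to the abundant genes above they include Csf1r, the tetraspanin Cd81, the protease Ctsb and Cyba, a subunit of the oxidase that makes superoxide. The actin cytoskeleton genes Actb and Cfl1 and the ribosomal proteins Rps29, Rps27 and Rpl37a are also among the 31. The most even of the 31 by spread between cells was C1qb, with an SD of 0.82 on the log2 scale, followed by Tmsb4x at 0.89 and Ctss at 0.99. The least even was Ccl12 at 3.00. Ccl12 met the rule with a lowest value of 11.1 FPKM and a highest of 38085. Its highest cell was thus 3437-fold above its lowest.

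Just inside the limit were 8 genes on in 52 cells, among them Ctsz and Actb, and just outside it 7 genes on in 51, among them Lgmn, Serinc3, Eef1a1 and Aif1, the gene whose promoter drives the reporter. Aif1 was on in 18, 15 and 18 cells of the 3 plates and had a median of 547 FPKM. Taken plate by plate, 27, 32 and 41 genes met the 95% rule in plates 1, 2 and 3. With 18 cells on a plate that rule asks for all 18, which is stricter than 52 of 54. The 17 genes that met it in each plate are thus the 17 on in all 54 cells. By the same rule 41 genes (0.188%) met it in the cells of day 2 and 54 (0.247%) in those of day 4, of which 29 and 27 were among the 31. The groups differ in number of cells, and no test of the difference was made.

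**Figure D2:**
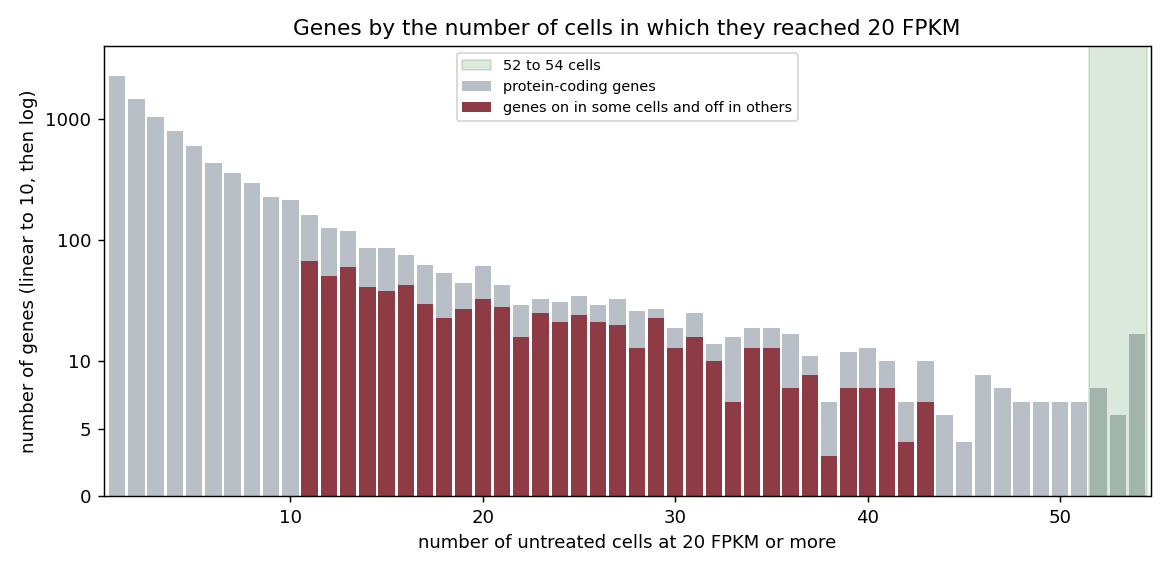
Number of protein-coding genes (linear to 10, then log axis) by the number of untreated cells in which they were on at 20 FPKM, with the 731 on/off genes in dark red and the range of 52 to 54 cells shaded. Genes on in no cell are not drawn. Most genes drawn were on in 10 cells or fewer and few in more than 43, and the bar at 54 cells, 17 genes, stands above the bars beside it.

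Most genes were never on, and nearly all others were on in only some cells. Of the 21819 genes, 12681 were on in 0 cells, 7690 in 1 to 10 cells, 1362 in 11 to 43, 55 in 44 to 51 and 31 in 52 to 54. A gene was called on/off where 20% to 80% of cells were on, at most 10% of cells lay between 10 and 40 FPKM, and the cells that were on had a median of at least 100 FPKM. This held for 731 genes, 3.35% of all protein-coding genes and 14.5% of the 5037 that reached 1 FPKM in at least 10% of cells. Just inside the limit on values near the threshold were 50 genes with 5 such cells, and just outside it 25 genes with 6. The on/off genes were on in a median of 35.2% of cells. The median level was 171 FPKM in cells that were on and 1.18 FPKM in cells that were off, and these levels follow from the rule. Their median length was 2451 bases against 3788 for the 5037 measured genes.

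The widest gaps between on and off cells belonged to genes of varied function. Ddit3, a transcription factor of the stress response, had a median of 581 FPKM in the 12 cells where it was on and 1.29 in the 42 where it was off, a gap of 7.99 on the log2(FPKM + 1) scale. A second row of the table carries the same symbol and overlaps it, so this value is uncertain. Mfsd5, a membrane transporter, was on in 13 cells at a median of 417 FPKM and off at 0.803. Trex1, a DNA exonuclease of the cytosol, was on in 15 cells at 357 FPKM and off at 0.631. Psma6, a proteasome subunit, was on in 12 cells at 545 FPKM, 7 of them in plate 2. P2ry12, a marker of these cells, was also among the 25 widest gaps, with a median of 1170.3 FPKM in the 41 cells where it was on and 6.61 in the other 13. At thresholds of 10 and of 50 FPKM the number of cells on stayed within 1.5 times that at 20 for each of these 25 genes.

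**Figure D3:**
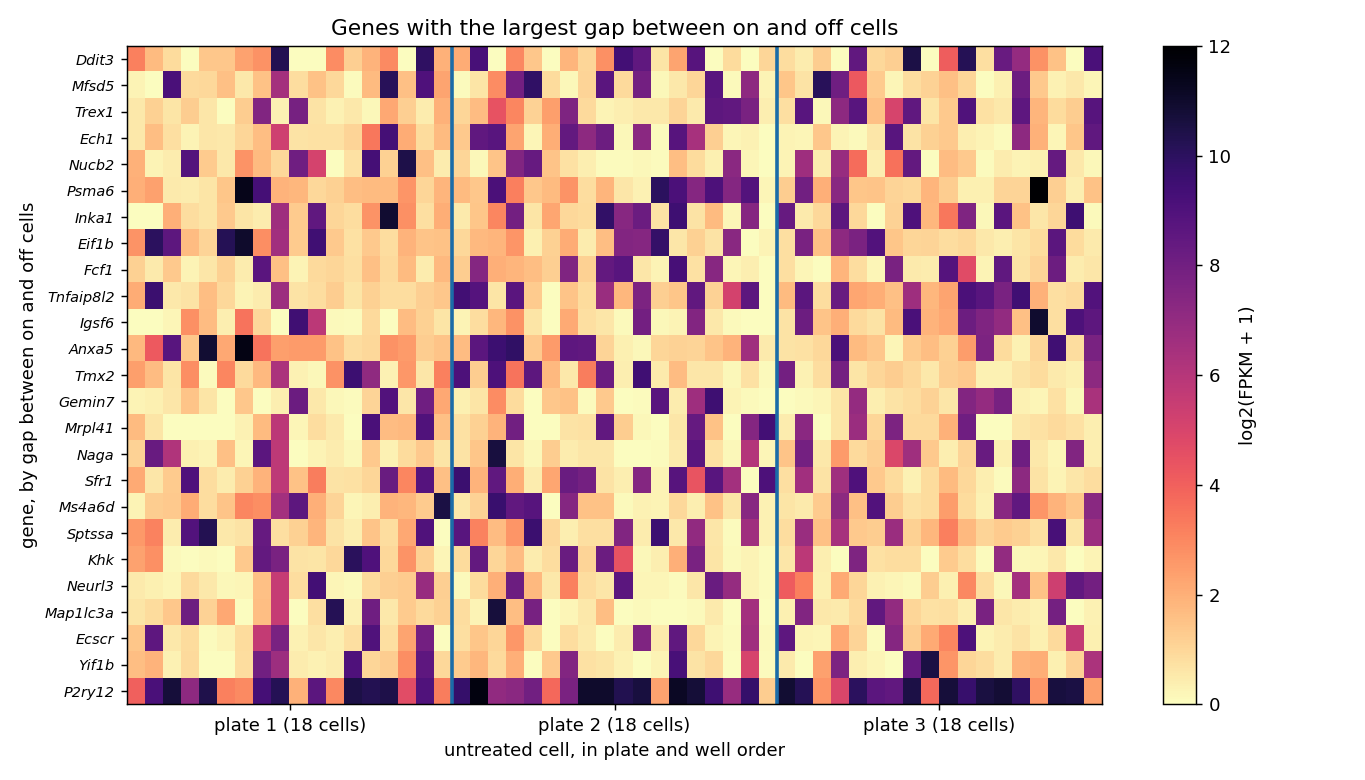
Level on the log2(FPKM + 1) scale (colour) of the 25 genes with the largest gap between on and off cells (rows) in the 54 untreated cells (columns, in plate and well order, with plates parted by blue lines). Dark cells are scattered over each row and each plate, and P2ry12 in the bottom row is on in 41 cells.

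On/off genes were on in cells of every plate with few exceptions, and most pairs of them varied apart. Of the 731, 723 were on in at least 1 cell of each plate. The rule asks for at least 20% of all cells to be on, so a plate without such a cell would be rare even with on cells placed at random. The count of 723 therefore says little about how alike the plates were. The median share of cells on was 22.2% in plate 1, 38.9% in plate 2 and 44.4% in plate 3, and 505 genes had their lowest share in plate 1. The widest plate differences were those of Olfml3, a secreted marker of microglia, on in 3, 14 and 11 cells, of Hpgd, which breaks down prostaglandins, on in 4, 15 and 15, and of Msn, which ties actin to the membrane, on in 3, 7 and 14. Over 249571 pairs of on/off genes, which are not all pairs of the 731, the median correlation was 0.09, the 95th percentile 0.35 and the highest 0.85. The closest partners of Trex1 were Ndufb9 at 0.62, Nfkbiz at 0.52 and Marcksl1 at 0.51, and those of Ddit3 were Srsf7, Pnrc1 and Aagab at 0.53 to 0.55.

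A cell had a median of 280 of the 731 genes on, from 41 to 587, and 215.5, 310.0 and 348 by plate. That number went with the number of genes at 1 FPKM in the same cell, with a Pearson correlation of 0.85 over 54 cells (0.86, 0.80 and 0.95 within plates), and less with the log2 number of reads, at 0.28. These measures share the library of the cell. Every gene that is on also counts among those at 1 FPKM, so part of the 0.85 follows from this. How many of the off values are RNA that was present but not captured was not tested. Most off values were above 0. Wells of the same column of the plate, untreated or after crush, were looked at beside them. Where another such well held the gene at 100 FPKM or more, 97.3% of 19485 off values were above 0, and where none did, 89.6% of 4697 were.

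**Figure D4:**
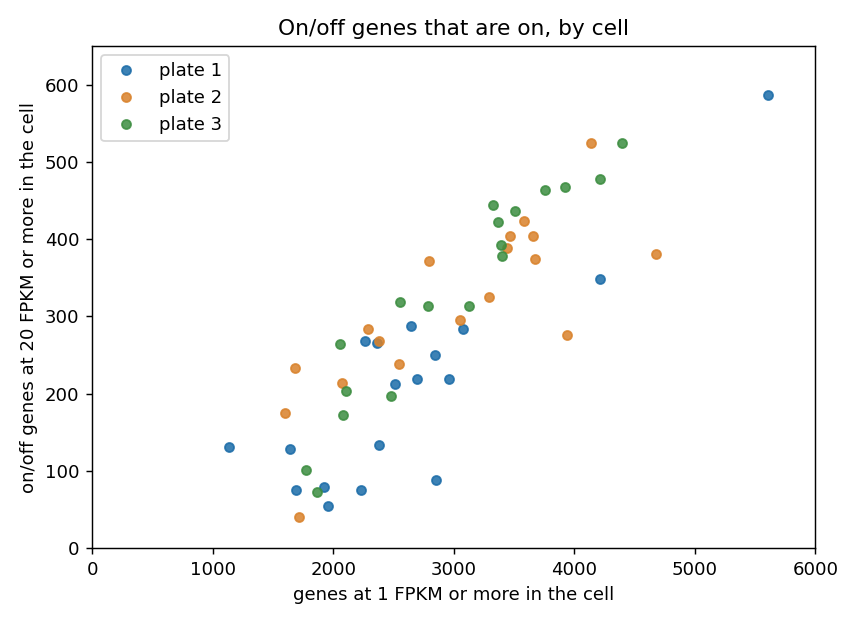
Number of the 731 on/off genes that were on in a cell against the number of genes at 1 FPKM or more in that cell, 1 point for each of the 54 untreated cells, coloured by plate. Points rise together from 41 to 587 genes on, and many cells of plate 1 lie at the lower left.

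By function, receptors and enzymes of microglia were split between the classes. Of all 5037 measured genes, 0.615% were on in nearly every cell and 14.5% were on/off, and the counts of each list stand beside these shares. Of 21 lysosomal genes, 5 were on in nearly every cell and 8 were on/off, among them Hexa, an enzyme of ganglioside breakdown, on in 39 cells at a median of 592 FPKM, and Gusb, beta-glucuronidase, on in 3, 11 and 12 cells by plate. The median lysosomal gene was on in 75.9% of cells, against 12.96% for the 5037 measured genes. Of 9 complement genes, the 3 C1q chains were on in nearly every cell, and 3 were on/off, among them the receptors C5ar1 and C3ar1, on in 23 and 24 cells. Of 12 genes that sense purines and chemokines, none was on in nearly every cell and 5 were on/off, among them P2ry12, P2ry13, on in 32 cells, and Entpd1, which breaks down extracellular ATP, on in 19. Of 12 Fc and phagocytic receptors, Tyrobp and Fcer1g were on in nearly every cell, and Fcgr1, Fcgr2b and Mertk were on/off, on in 24, 23 and 15 cells.

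Housekeeping genes split in the same way. Of 20 nuclear genes of the respiratory chain, 0 were on in nearly every cell and 12 were on/off, where 0.615% and 14.5% of measured genes were; the list's median share of cells on was 44.4%. Cox4i1, a subunit of cytochrome oxidase, was on in 40 cells, and Ndufs5, of the first complex of the chain, in 17. Of 25 listed ribosomal protein genes, which do not include Rps27 and Rpl37a, 2 were on in nearly every cell and 9 were on/off, among them Rpl4 in 40 cells, 9, 15 and 16 by plate. Of 19 actin cytoskeleton genes, 3 and 11 were, and of 14 glycolysis genes 0 and 4, with Eno1 on in 5, 13 and 11 cells by plate. Genes that every cell uses thus stood among the on/off genes.

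The chains of C1q were on in every cell, and their correlations differed by pair. That of C1qa and C1qb was 0.48 over the 54 cells, that of C1qb and C1qc 0.14 and that of C1qa and C1qc 0.04. These 3 genes lie side by side on chromosome 4, from 136880129 to 136898803 in the deposited exon positions. C1qa, C1qb and C1qc were at 1000 FPKM or more in 50, 54 and 50 of 54 cells, with SDs of 1.08, 0.82 and 1.28 on the log2 scale.

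Immediate-early and dissociation stress genes, a list of 24, parted the untreated cells in their summed level. This sum was 611 FPKM or less in 24 cells, 2116.5 in 1 cell and 11994 FPKM or more in 29, with no cell elsewhere; these limits were set after the values were seen. The high cells were 8, 9 and 12 of 18 in plates 1, 2 and 3, and the median sum was 357, 7707 and 16322 FPKM. By column of the plate, they were 4, 8, 3, 5, 7 and 2 of 9 in columns 1 to 6. The log2 sum had a correlation of 0.72 with the number of genes at 1 FPKM and of 0.09 with the log2 number of reads over 54 cells. The part of capture, column and handling in this split was not tested.

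**Figure D5:**
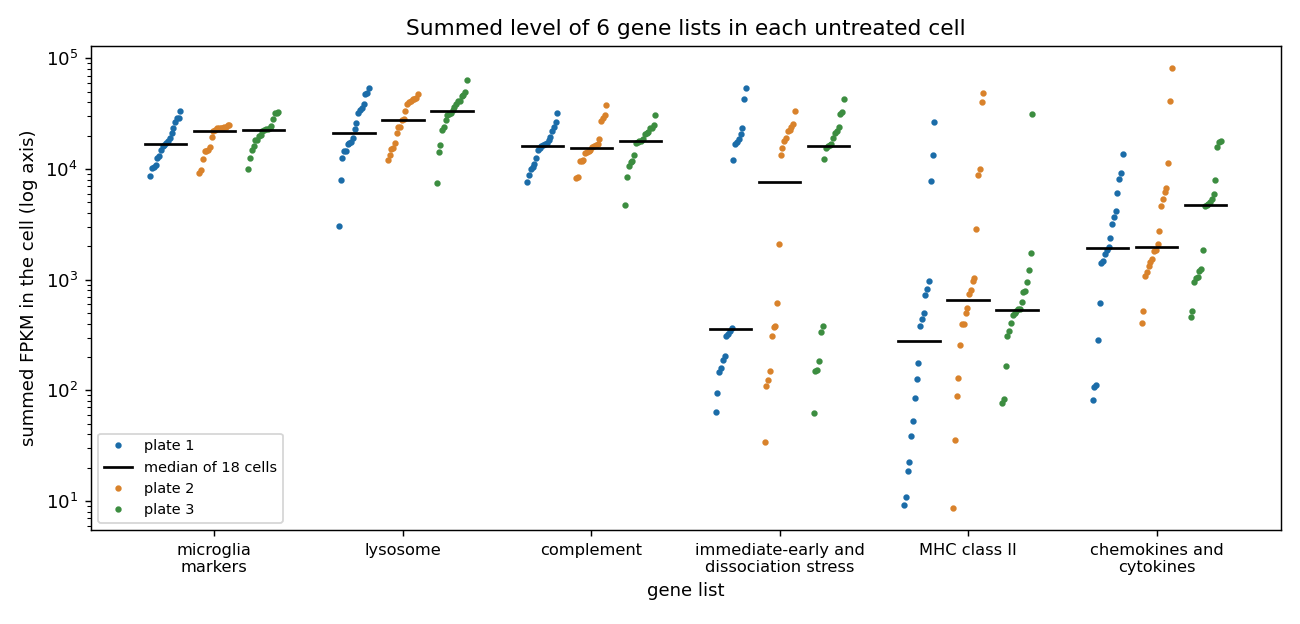
Summed FPKM of 6 gene lists (log axis) in each of the 54 untreated cells, coloured by plate, with the median of 18 cells as a black line. Sums for microglia markers, lysosome and complement form 1 cloud per plate, whereas the immediate-early sum is either at 611 or less or at 11994 or more in all but 1 cell.

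Single genes of the list ranged as widely. Fos, a transcription factor of the immediate-early response, ran from 2.28 through a median of 949 to 8667 FPKM and was on in 40 cells, with medians of 54.1, 530 and 1501 FPKM by plate. Junb, its partner, ran from 2.49 through 1981 to 15706 FPKM and was on in 48. These counts depend on the threshold, since 16 cells for Fos and 15 for Junb lay between 10 and 40 FPKM. Fos was at 1000 FPKM or more in 27 cells and Junb in 29. Jun had a median of 794 FPKM and Egr1, a zinc finger factor, of 847. The feedback genes Dusp1, a phosphatase, and Zfp36, which destabilises cytokine mRNA, were on in 31 and 30 cells. Jun and Junb had a correlation of 0.97, Fos and Junb of 0.93 and Fos and Jun of 0.92. Each was above the highest value among pairs of on/off genes, a class to which Fos and Junb do not belong. Of the 24 genes, 0 were on in nearly every cell, 7 were on/off against 14.5% of measured genes, and Nr4a1 did not reach 20 FPKM in any cell. In the cells of day 2, the sum was under 1000 FPKM in 17, between 1000 and 10000 in 12 and at 10000 FPKM or more in 25 of 54, and in those of day 4 in 4, 17 and 15 of 36. The middle range thus held 1 of 54 untreated cells and more cells after crush, a difference that was not tested.

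The windows before the starts of Fos and Junb, which moved together from cell to cell, are shown. In capitals are the letters TGACG, which open the site bound by CREB and ATF factors, or their reverse complement. Jun, whose correlations with Fos and Junb were 0.92 and 0.97, is not shown. Fos lies at chr12:85473640-85473889 on the forward strand and Junb at chr8:84978749-84978998 on the reverse strand, both from the same RefSeq table.
Fos: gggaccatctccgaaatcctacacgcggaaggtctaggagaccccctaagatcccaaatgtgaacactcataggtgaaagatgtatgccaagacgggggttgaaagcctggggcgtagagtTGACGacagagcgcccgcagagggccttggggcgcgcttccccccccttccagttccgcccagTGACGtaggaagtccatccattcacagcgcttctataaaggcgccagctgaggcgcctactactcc
Junb: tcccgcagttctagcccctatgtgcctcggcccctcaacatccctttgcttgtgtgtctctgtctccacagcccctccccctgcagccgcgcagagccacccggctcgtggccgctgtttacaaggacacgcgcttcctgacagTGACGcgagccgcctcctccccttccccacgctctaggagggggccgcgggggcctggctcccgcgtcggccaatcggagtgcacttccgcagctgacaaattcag
Fos holds 2 matches, from base 129 to 125 and from 66 to 62 before the start, and Junb 1, from 106 to 102. The letters, searched on both strands and chosen after the windows were read, are in 17.9% of all 27025 windows. Of the 24 listed genes, 20 had a window and 10 of those held a match (50%). Windows of the listed genes are richer in G and C, with a median of 65.0% against 52% over all windows, and in the 3982 windows of measured genes (median 59.6%) the letters were in 29.5%. A match describes letters only.

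Chemokines and the genes of the series title were present at baseline in some cells. Ccl3 was on in 36 cells and Ccl4 in 38, with medians of 46.98 and 37.1 FPKM and highest values of 10423 and 19351. Ccl6 was an on/off gene, on in 39 cells, and Ccl7 was on in 0, 4 and 8 cells by plate. Over all 20 chemokines and cytokines, Ccl12 was on in nearly every cell, 3 genes were on/off and 3 were on in no cell, among them Il6 and Igf1. The on/off count of 3 in 20 is near the share of 14.5% over measured genes. Il1a was on in 21 cells (5, 6 and 10 by plate), Gpr84, a receptor for fatty acids, in 16 (3, 4 and 9) and Tnf in 10 (3, 1 and 6). Il1a and Gpr84 were on together in 12 cells, 57.1% of the cells with Il1a and 75.0% of those with Gpr84, with a correlation of 0.51.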

How the data were processed

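RNA of 54 untreated cells was analysed, with 54 cells of day 2 and 36 of day 4 beside them. Per the labels' protocols, cDNA was amplified from single cells and turned into libraries with Nextera XT. The submitters' processing notes name STAR 2.7.2b, featureCounts 1.6.1, the trimmers cutadapt 1.16, Trim Galore 0.4.4 and Trimmomatic 0.36, and the builds GRCm38.p6 and mm10; their settings were not given in the sources used here. Values as the authors deposited them are FPKM, in 1 table of 55364 genes. FPKM times length summed to 1e+09 in every cell, so values are shares of assigned reads. The table has 0 mitochondrial rows.

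Depth was recovered from the value of 1 read, the most frequent low value, which gave the true total in 12 of 12 simulated cells of whole reads, after the rule was revised for a simulated cell in which values of 1 and 2 reads were about as frequent. A median of 61.0% of values were whole reads (tolerance 0.01), so no count model was fitted. Where a symbol stood in several rows (110 extra rows), its highest row by mean was taken. Logs are log2(FPKM + 1). On simulated data the rules recovered 199 of 200 on/off genes and 200 of 200 genes high in every cell, and called 0 of 21446 others on/off. The others were simulated as 1 class of values with an SD of 1 on the log2 scale, whereas Tmem119 had 3.24. The simulation therefore cannot show whether the rule would call on/off a gene of wide spread without 2 classes. Shares have exact Clopper-Pearson 95% intervals. Scripts used Python 3.11.15, numpy 2.4.6 and pandas 2.3.3.

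Named are the 5 markers and title genes, the 25 genes with the highest mean, genes on in nearly every cell, the 25 on/off genes with the largest gap with 3 partners for the first 5, up to 4 per gene list, and markers of other cell types on in 10% of cells; names of Gm with digits, or ending in Rik or -ps, were left out. Some other list members and genes with wide plate differences were named after their values were seen. Some further genes are not reported here. Members and gene lists were chosen with earlier results of these data known. Alternatives tried were other thresholds, shares of cells and scales, leaving out each plate, cells under 1 M (1e+06) reads and cells with markers of another type.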

Additional observations from a re-analysis of the deposited data

Results flagged for a closer look

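Rows of the table that are not protein-coding held signal in nearly every untreated cell, and no comparison above uses them. Gm22133, a miRNA gene inside exons of Ftl1, had a mean of 12946.8 FPKM (median 10250) over a length of 109 bases. Gm37376, inside the exons of Malat1, had a mean of 6347 FPKM and was on in 53 cells. On chromosome 1, the unprocessed pseudogenes Gm29216, Gm10925 and Gm28437 had means of 7654, 7004 and 5947 FPKM and were on in 54, 54 and 53 cells. These 3 lie within 24613189 to 24616197 (GRCm38), and together with the other unprocessed pseudogenes they took a median of 1.52% of assigned reads, from 0.0317% to 7.58%.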

How the results depend on the processing

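The number of genes on in nearly every cell, 31, was 20 at 50 FPKM, 52 when 90% of cells were enough, 17 when every cell was required and 56 over all gene types. Without 1 plate at a time it was 29 to 37. The 731 on/off genes became 476 at a threshold of 50 FPKM and 483 when at most 5% of cells could lie near the threshold, and 625 to 757 without 1 plate at a time. It rose to 1062 on the TPM scale, 1011 with no minimum level and 978 with off set under 1 FPKM. Of the 731 genes, 596 were also called on the TPM scale and 369 in each of the sets without 1 plate. The 18 cells with markers of another type became 35 at 1 FPKM, 9 at 50 FPKM and 10 with the reduced Müller list, an alternative chosen after seeing the data. Without all 18 cells, 24 genes were on in nearly every cell and 646 were on/off, 23 and 562 of them among those called with all cells. Without those 10 cells 32 genes were on in nearly every cell and 761 were on/off. Without 1 plate at a time, 22 to 25 of the 25 most abundant genes remained; without plate 2, Cd74, Fos and Lgmn left. The mean log2 level without 1 plate at a time was 7.74 to 8.87 for Cx3cr1, 7.68 to 8.26 for P2ry12, 6.81 to 7.97 for Tmem119, 9.59 to 9.86 for Csf1r and 11.27 to 11.33 for C1qa. The cause of these changes was not tested beyond what each alternative removes. No paired analysis was possible because no test between groups was made; the groups share the 3 plates, but the labels name no animal and the cells of a group count as 1 sample. Off may mean RNA that was not captured, which was not tested. The number of on/off genes on in a cell had a correlation of 0.85 with its genes at 1 FPKM, which include them. With its log2 reads the correlation was 0.28.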

Other observations

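Most genes of cell division were on in few cells. Of 14 cell cycle genes, Mki67, Top2a, Ccnb1 and Tyms reached 20 FPKM in 0 of 54 cells, and Ccnb2 and Rrm2 did so in 1. Pcna and Tubb5 were on/off, on in 13 and 11 cells. The median cell had 0.5 of the 14 genes on, but 1 cell of plate 2 had 9 and 1 of plate 1 had 8, and the summed level passed 1000 FPKM in 2 cells, with a highest value of 3407. The median of 13 interferon response genes, of which 11 were among the measured genes, was on in 7.41% of cells. That share was 12.96% for the median measured gene and 0% for the median of all protein-coding genes. Bst2, which tethers virus particles, was on in 3, 8 and 9 cells by plate. Tsc22d3, a target of glucocorticoids, was on in 4, 8 and 11 cells by plate and the summed level of 7 such genes had medians of 5.35, 160 and 239 FPKM.

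Some genes listed for other cell types were common. The cone gene Gngt2 was on in 32 cells and Pde6h in 25, but their exons overlap those of Abi3 and Arhgdib, genes of leukocytes. Whether strand was used in counting is not given. Csf3r, listed for neutrophils, was on in 21 cells, although 0 cells held 3 of the 8 neutrophil markers.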
